A study of Mus musculus with 3 samples.

Results

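Haemoglobin-positive bins were squares of 27 µm on mouse thymus sections in which at least 3 unique molecular identifiers (UMIs, each standing for 1 captured RNA molecule) came from the 4 adult globin genes *Hba-a1*, *Hba-a2*, *Hbb-bs* and *Hbb-bt*. Squares with fewer than 300 genes, or with more than 30% of UMIs from mitochondrial genes, were left out. Of 39319 kept bins in 2 sections, 382 met the globin rule, 308 of 27275 in section WT1101 and 74 of 12044 in section KO1134. The spatial part of the study holds 3 sections and 56744 kept bins. It asked where early changes appear in the thymus of mice that lack *Trp53*, the gene of the tumour suppressor p53. WT1101 came from a 17-week-old *Trp53*+/+ female and KO1134 from a 17-week-old *Trp53*-/- female, both C57BL/6. Both mice, like the knockout mouse of the remaining section KO1308, had cold PBS passed through the heart before dissection, which washes blood out of open vessels, and the organs were frozen in OCT. Polyadenylated RNA was captured on the BMKMANU S1000 array, and by the study's methods the permeabilisation of the tissue lasted longer in one genotype than in the other. Each genotype was represented by 1 section from 1 mouse in this comparison, so genotype, animal, section and permeabilisation cannot be told apart, and no difference between the sections was tested.

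Haemoglobin is a tetramer of alpha and beta chains, each holding a haem group that binds oxygen. Erythroblasts switch on globin, haem synthesis and iron uptake under the transcription factors Gata1 and Klf1, then extrude the nucleus and become reticulocytes, which keep ribosomes and globin mRNA for a short time before they mature into red cells. Globin RNA in a tissue section can therefore lie in blood within a vessel, in blood that has left a vessel, or in erythroid precursors in the tissue. Vessels are marked by endothelial genes and, around larger ones, by smooth muscle genes. Precursors are marked by *Alas2*, the first enzyme of haem synthesis in erythroid cells, by *Gata1* and *Klf1*, and by membrane proteins such as that of *Slc4a1*.

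The globin genes come in near-identical pairs, which bears on how their counts can be read. The coding stretches below, from the GENCODE vM21 annotation of GRCm38, surround the only base at which the coding sequences of each pair differ, and that base is in capitals. They lie in exon 3 at chr11:32284323-32284363 (plus strand), chr11:32297140-32297180 (plus strand), chr7:103826672-103826712 (minus strand) and chr7:103812663-103812703 (minus strand), in the order printed.
Hba-a1: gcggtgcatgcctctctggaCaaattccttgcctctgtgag
Hba-a2: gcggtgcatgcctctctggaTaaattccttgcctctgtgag
Hbb-bs: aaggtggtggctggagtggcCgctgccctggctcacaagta
Hbb-bt: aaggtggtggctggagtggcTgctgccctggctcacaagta
The alpha pair differed by C381T within 429 coding bases and the beta pair by C417T within 444, counted from the first base of the start codon of the first gene of each pair. Of all windows of 50 bases in the transcripts, 67.5% of those of *Hba-a1* and 86.9% of those of *Hba-a2* were found in the other gene, against 65.8% of those of *Hbb-bs* and 58.3% of those of *Hbb-bt*. In the last 250 bases, the end that capture of the polyA tail favours, the shared windows were 75.1% and 67.2% for the alpha pair but 20.9% and 20.4% for the beta pair. The split between *Hba-a1* and *Hba-a2* is therefore uncertain, and the alpha and beta sums are the safer values.

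All 4 genes are switched on together in erythroid cells, and their proximal promoters share a set of short motifs. The 120 bases before each RefSeq start (GRCm38.p6) are printed with CACCC, the box that Klf1 recognises, CCAAT and TATAA in capitals, read on either strand, so that ATTGG is a CCAAT of the other strand. They cover chr11:32283552-32283671, chr11:32296372-32296491, chr7:103827929-103828048 and chr7:103813924-103814043.
Hba-a1: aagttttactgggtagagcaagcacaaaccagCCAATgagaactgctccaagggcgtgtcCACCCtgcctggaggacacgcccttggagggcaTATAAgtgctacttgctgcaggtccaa
Hba-a2: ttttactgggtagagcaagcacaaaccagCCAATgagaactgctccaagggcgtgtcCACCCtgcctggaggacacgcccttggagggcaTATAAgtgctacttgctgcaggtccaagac
Hbb-bs: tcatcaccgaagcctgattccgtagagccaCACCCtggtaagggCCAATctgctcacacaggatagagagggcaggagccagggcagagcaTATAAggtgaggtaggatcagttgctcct
Hbb-bt: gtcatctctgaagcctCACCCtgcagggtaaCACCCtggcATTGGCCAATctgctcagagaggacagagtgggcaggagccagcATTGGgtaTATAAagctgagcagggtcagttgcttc
Each of the 4 held all 3 motifs. Within 250 bases upstream, CACCC occurred in 52.0% of 32851 RefSeq promoters, CCAAT in 33.85%, TATAA in 22.8% and the 3 together in 3.285%. A match of this kind is a description of letters and not a measured binding site.

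WT1101 held 41581477 UMIs with a median of 1350 per kept bin, and KO1134 held 31237062 with a median of 2641. Adult globins made up 3033 UMIs in the kept bins of WT1101, 74.6 CPM (UMIs of a gene per 1e6 UMIs, 95% interval 72.0 to 77.3), and 1308 in KO1134, 42.0 CPM (39.7 to 44.3). All intervals here are exact Poisson or binomial intervals at 95% and cover counting error only, not the spread between mice. The haemoglobin-positive bins carried 73.3% of the globin UMIs in WT1101 and 64.1% in KO1134, on 1.13% (1.01 to 1.26) and 0.614% (0.483 to 0.771) of kept bins. Bins of WT1101 were shallower, yet its share was the higher. When every bin with at least 1000 UMIs was thinned to 1000, which left out 9530 bins of WT1101 and 1390 of KO1134, 0.879% (0.747 to 1.03) and 0.291% (0.198 to 0.413) of bins still held 3 globin UMIs. The same bins gave 1.57% and 0.554% before thinning.

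The threshold cut through a falling distribution. In WT1101, 488 bins held 1 globin UMI and 161 held 2, just outside the rule, while 89 held 3 and 55 held 4, just inside it. In KO1134 the corresponding bins numbered 326, 72, 26 and 12. At the upper end, 16 bins in WT1101 and 10 in KO1134 held at least 20 globin UMIs. The median haemoglobin-positive bin held 5 globin UMIs in WT1101, with a highest value of 137, and 4 in KO1134, with a highest value of 160. Even so, globins were a small part of each bin, 0.402% of all UMIs in the haemoglobin-positive bins of WT1101 and 0.516% in those of KO1134.

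All 4 genes were present in both sections. In WT1101, the haemoglobin-positive bins held 425 UMIs of *Hba-a1* (768 CPM), 356 of *Hba-a2* (644 CPM), 1143 of *Hbb-bs* (2066 CPM) and 299 of *Hbb-bt* (541 CPM). In KO1134 they held 180 (1109 CPM), 115 (708 CPM), 438 (2697 CPM) and 105 (647 CPM). The bins were chosen by these counts, so the levels are a description. Beta-chain UMIs were 64.9% (62.8 to 66.9) of globin UMIs in WT1101 and 64.8% (61.5 to 68.0) in KO1134, with overlapping intervals and not corrected for transcript length. *Hbb-bs* gave 79.3% (77.1 to 81.3) and 80.7% (77.1 to 83.9) of beta-chain UMIs, and in bins with 1 or 2 globin UMIs 70.8% and 74.1%. *Hba-a1* gave 54.4% (50.85 to 57.95) of alpha-chain UMIs in WT1101 and 61.0% (55.2 to 66.6) in KO1134, a split that is uncertain for the reason given above. The embryonic chains *Hba-x*, *Hbb-y* and *Hbb-bh1*, which primitive red cells use, had 0 UMIs in the haemoglobin-positive bins of both sections, where 3 UMIs would have been 5.42 CPM in WT1101 and 18.5 CPM in KO1134.

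On the section of WT1101 the haemoglobin-positive bins were drawn out into a curved band in the inner thymus, with smaller clusters elsewhere, while in KO1134 they were scattered as small clusters and single bins. The 308 bins of WT1101 fell into 58 groups of touching bins, of which 32 were single bins, and the 74 of KO1134 into 29, of which 18 were single bins. Groups of at least 10 bins held 207 bins (67.2%) in WT1101 and 14 bins (18.9%) in KO1134. Groups are numbered from the largest. Groups 1 and 2 of WT1101, of 97 and 57 bins, lay 27 µm apart and together spanned 1026 by 594 µm with 1067 globin UMIs. The median distance from a haemoglobin-positive bin to the outer edge of the tissue was 1458 µm in WT1101, against 649 µm for all kept bins and 503 µm for bins matched on UMIs. In KO1134 it was 301 µm, against 334 and 273 µm.

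**Figure D1:**
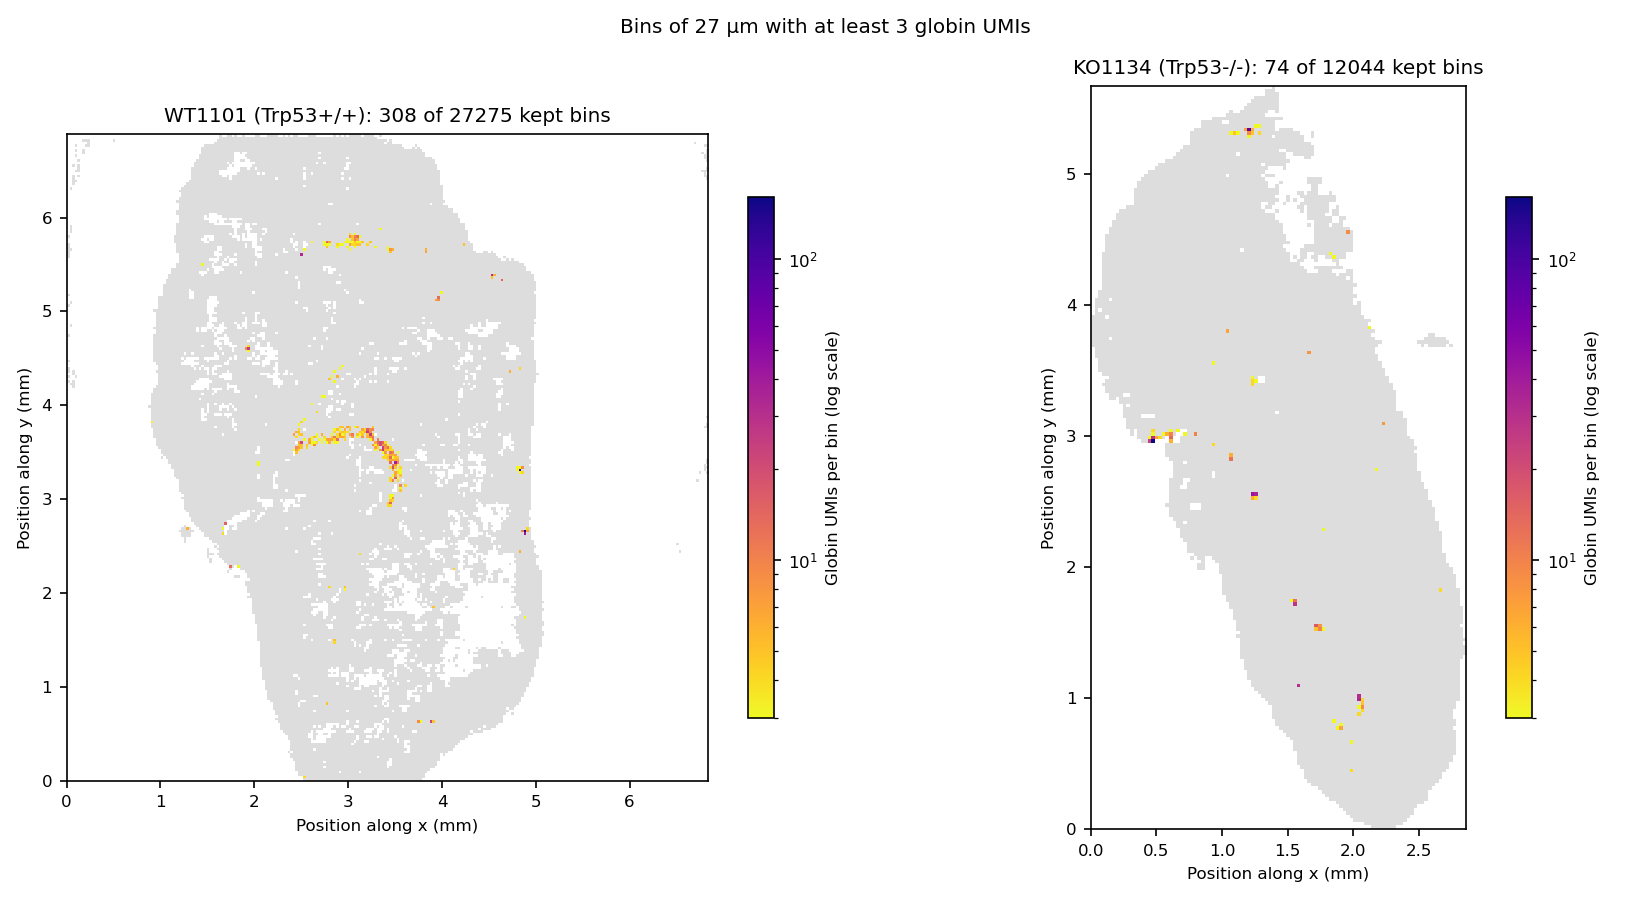
Maps of both sections with position in mm on each axis, kept bins in grey and the 308 (WT1101) and 74 (KO1134) haemoglobin-positive bins coloured by globin UMIs on a log scale; the panels are drawn at different scales. The curved band of WT1101 consists of groups 1 and 2, and KO1134 has its largest group of 14 bins near the left edge.

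To see what else lay in these squares, each haemoglobin-positive bin was compared with the 5 globin-free bins of its section closest to it in total UMIs, giving 1540 matched bins in WT1101 and 370 in KO1134. Ratios are the summed CPM of a gene or list in haemoglobin-positive bins over that in matched bins. In a bin, fewer cells of a type and less RNA per cell cannot be told apart. Genes were counted as higher or lower past 1.5-fold when at least 50 UMIs were available. Of all 9295 such genes in WT1101, 560 (6.02%) were higher and 1081 (11.6%) lower, and of 4057 in KO1134, 277 (6.83%) were higher and 577 (14.2%) lower. The median gene stood at a ratio of 0.92 in WT1101 and 0.966 in KO1134, and the lists below are to be read against these values. Depth did not separate the groups, since median UMIs per bin were the same by construction, 1736 in WT1101 and 2068 in KO1134. The median mitochondrial share was 0.922% against 0.701% in matched bins in WT1101 and 1.465% against 1.124% in KO1134, and its part in the results was not tested.

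Endothelial genes were higher where globin RNA lay in WT1101, and in KO1134 by a smaller ratio that depended on the settings. In WT1101 the endothelial list gave 709 CPM in haemoglobin-positive bins and 230 CPM in matched bins, a ratio of 3.08 (2.71 to 3.495), and all 5 of its genes with at least 50 UMIs were higher, with a median of 5.0. In KO1134 the list gave 530 and 351 CPM, a ratio of 1.51 (1.17 to 1.93), and 1 of 2 such genes was higher. The ratio of KO1134 was 1.39 (0.939 to 2.015) at a minimum of 5 globin UMIs, 1.23 (0.878 to 1.695) in bins of 20 µm and 1.32 (0.948 to 1.855) with 1 comparison bin per member, and these intervals spanned 1. At least 1 endothelial UMI was present in 55.5% of haemoglobin-positive bins and 29.5% of matched bins in WT1101, and in 56.8% and 45.4% in KO1134. So globin-rich squares without an endothelial UMI were also common in both sections.

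Single endothelial genes followed the list in WT1101. *Pecam1*, an adhesion molecule of endothelial junctions, had 94 UMIs against 265 in the 5 times more numerous matched bins, a ratio of 1.77 (1.39 to 2.25), and 17 against 76 in KO1134, a ratio of 1.12 (0.619 to 1.91). *Cdh5*, the endothelial cadherin, had 24 against 23 UMIs in WT1101, a ratio of 5.22, and 5 against 12 in KO1134, a ratio of 2.08. *Plvap*, a protein of the diaphragms of fenestrated endothelium, had 37 against 25, a ratio of 7.40 in WT1101. *Aqp1*, the water channel of both red cells and endothelium, was higher in both sections, at 5.88 (4.31 to 8.02) and 2.69 (1.505 to 4.69).

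Venous genes were higher in the haemoglobin-positive bins of WT1101, with 98 and 38 of the list's UMIs in groups 1 and 2 of touching bins. The venous and post-capillary list had 176 UMIs in haemoglobin-positive bins against 59 in matched bins, a ratio of 14.9 (11.1 to 20.4), and was detected in 31.2% of the former and 2.66% of the latter. *Vwf*, the platelet-binding protein stored by endothelium and most abundant in veins, had 88 against 15 UMIs, a ratio of 29.3 (16.9 to 54.6). *Lrg1* stood at 18.8 (9.75 to 38.9) and *Ackr1*, the chemokine-binding receptor of venules, at 12.2 (5.41 to 30.2). Of the same list, *Selp* had 1 against 4 UMIs and *Sele* 0 in both kinds of bins. In KO1134 the list had 20 against 35 UMIs, a ratio of 2.86 (1.56 to 5.09), with *Vwf* at 5 against 4. Arterial genes stood at 0.952 in WT1101 and 1.35 (0.689 to 2.47) in KO1134, and capillary genes at 0.967 and 1.18, but their members were not alike. *Rgcc* gave 182 of the capillary UMIs in WT1101, at 0.917, while *Cd300lg* stood at 3.44 (1.44 to 7.89) there. In KO1134 *Gpihbp1*, which anchors lipoprotein lipase on capillaries, had 7 against 8 UMIs, a ratio of 4.37 (1.35 to 13.8), and the arterial gene *Sema3g* 6 against 3, a ratio of 9.999 (2.135 to 61.8); these genes were singled out after their values were seen. Genes of high endothelial venules, through which lymphocytes enter lymph nodes, had 0 UMIs against 8 in WT1101, too few to compare. In KO1134 the list stood at 0.326 (0.117 to 0.737), with *Glycam1* at 2 against 77 UMIs and *Fut7*, a fucosyltransferase that makes selectin ligands, at 4 against 10.

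Smooth muscle accompanied globin RNA in WT1101, while in KO1134 the interval of its list spanned 1. The smooth muscle list had 274 UMIs against 234 in WT1101, a ratio of 5.85 (4.90 to 7.0), with all 5 counted genes higher and a median of 5.33. *Acta2*, smooth muscle actin, had 75 against 51 UMIs, a ratio of 7.35 (5.08 to 10.7). *Myl9*, a myosin light chain, stood at 12.6 and *Myh11*, the smooth muscle myosin heavy chain, at 4.63. In KO1134 the list had 26 against 115 UMIs, a ratio of 1.13 (0.709 to 1.74), and *Acta2* had 2 against 29, a ratio of 0.345 (0.040 to 1.36). Pericyte genes stood at 1.63 (1.31 to 2.02) and 1.29 (0.934 to 1.76). Fibroblast genes, which include those of the outer coat of vessels, were higher in both, at 3.27 (2.79 to 3.81) and 1.64 (1.32 to 2.03), with *Dcn*, a collagen-binding proteoglycan, at 3.78 and 1.53.

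**Figure D2:**
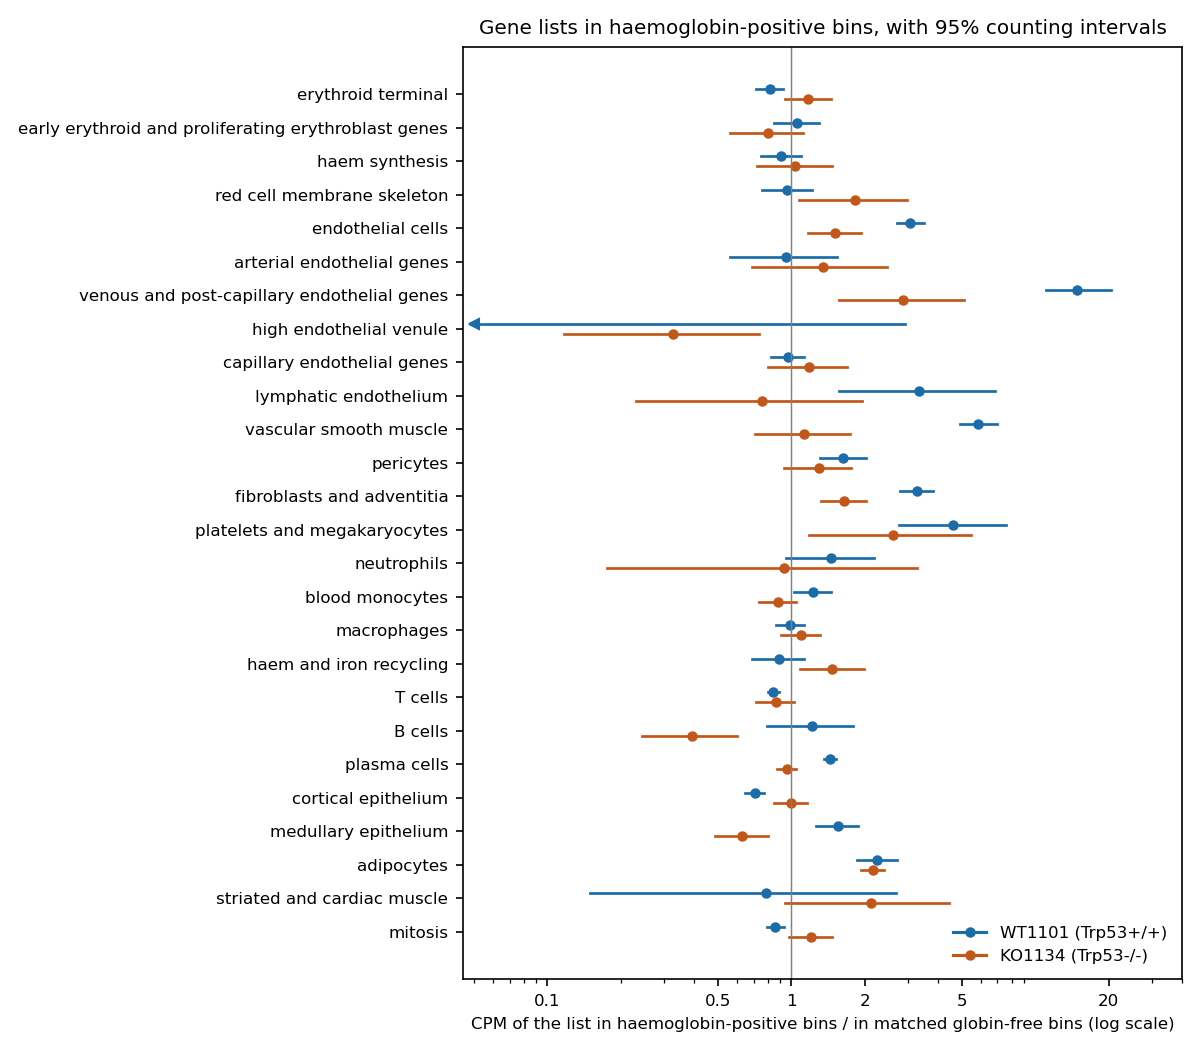
Ratio of CPM in haemoglobin-positive over matched bins (log axis) for the gene lists in WT1101 (blue) and KO1134 (orange), with 95% intervals for counting error and an arrow for a list with 0 UMIs. Venous, smooth muscle and platelet lists lie farthest to the right in WT1101, whereas both erythroid lists lie near 1 in both sections.

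In the main comparison, the list of genes of maturing erythroid cells showed no excess beside the globins beyond counting error. With 1 comparison bin per member, its ratio in KO1134 was 1.395 (1.029 to 1.898), an interval above 1. The terminal erythroid list, genes of late erythroblasts and reticulocytes other than globins, had 300 UMIs against 1840 in WT1101, a ratio of 0.815 (0.719 to 0.922), and 106 against 451 in KO1134, a ratio of 1.175 (0.942 to 1.46). None of its 5 counted genes was higher in WT1101 and 1 was lower, and in KO1134 1 of 4 was higher. Its most abundant genes were also present in globin-free bins. *Bnip3l*, which marks mitochondria for removal in reticulocytes, stood at 0.714 in WT1101 with 116 UMIs against 812, and at 31 against 157 UMIs in KO1134. *Isg20*, an RNA exonuclease, stood at 0.599 in WT1101 with 35 UMIs against 292 and had 24 against 73 in KO1134.

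The genes that define erythroid precursors were at or near 0. *Gata1*, *Klf1* and *Epor*, the erythropoietin receptor, had 0 UMIs in the haemoglobin-positive bins of both sections. The same held for *Slc4a1*, the anion exchanger of the red cell membrane, and for *Hemgn*, *Trim58*, *Trim10*, *Rhag*, *Kel* and *Ermap*. Matched bins held few as well: *Gata1*, *Klf1* and *Epor* had 2, 1 and 1 UMIs in WT1101 and 7, 0 and 3 in KO1134. There *Hemgn* had 8 and 9 UMIs, and *Slc4a1*, *Trim58*, *Trim10* and *Rhag* had 0 in both sections. With so few UMIs in matched bins, these counts of 0 cannot tell the kinds of bins apart. The limit used for a count of 0, 3 UMIs over all haemoglobin-positive bins of a section, was 5.42 CPM in WT1101 and 18.5 CPM in KO1134. *Alas2* was the exception, with 4 UMIs against 4 in WT1101, a ratio of 5.0 (0.931 to 26.8), and 1 against 1 in KO1134. That is 1.80 and 1.19 *Alas2* UMIs per 1000 globin UMIs. At this depth the absence of the other genes is a limit on their level and not proof that no precursor was present.

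The early erythroid list stood at 1.06 (0.851 to 1.301) in WT1101 and 0.801 (0.561 to 1.12) in KO1134, carried mainly by *Tfrc*, the transferrin receptor that all dividing cells use to take up iron, with 76 against 385 and 30 against 169 UMIs. Haem synthesis genes stood at 0.910 (0.754 to 1.09) and 1.04 (0.724 to 1.46). The red cell membrane skeleton stood at 0.963 (0.759 to 1.21) in WT1101 and at 1.825 (1.08 to 2.98) in KO1134, where 23 UMIs were counted, 15 of them from *Epb41*, which many cell types express. *Bpgm*, which makes the regulator of oxygen release in red cells, had 8 against 12 UMIs in KO1134, a ratio of 3.33 (1.18 to 8.87), and 17 against 89 in WT1101. Mitosis genes stood at 0.861 and 1.201, with the median genes of the sections at 0.92 and 0.966.

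Gene lists for other components of blood went in several directions, and which cells made these UMIs was not tested. Platelet genes had 33 against 36 UMIs in WT1101, a ratio of 4.58 (2.77 to 7.56), and 12 against 23 in KO1134, a ratio of 2.61 (1.18 to 5.46). Most of this in WT1101 was *Pf4*, a chemokine of platelet granules, with 29 against 8 UMIs and a ratio of 18.1 (8.08 to 45.9), whereas *Itga2b*, the platelet integrin, had 1 against 12, *Clec1b*, a platelet receptor, 1 against 14, and *Ppbp*, another platelet chemokine, 0. The excess of the list in WT1101 thus rested on *Pf4*. Neutrophil genes stood at 1.45 (0.949 to 2.17) and 0.937, with *S100a8* at 12 against 30 and *S100a9* at 14 against 49 UMIs in WT1101. Blood monocyte genes stood at 1.22 (1.03 to 1.45) and 0.880, and macrophage genes at 0.990 and 1.09. Genes of haem and iron handling stood at 0.886 in WT1101 and 1.475 (1.08 to 1.98) in KO1134. In KO1134 the haptoglobin gene *Hp*, whose product binds free haemoglobin, had 15 against 27 UMIs, a ratio of 2.78 (1.37 to 5.41), and the transferrin gene *Trf* 15 against 29, a ratio of 2.59. Genes by which macrophages recycle the iron of old red cells had few UMIs there: *Hmox1*, which breaks down haem, 1 against 9, *Slc40a1*, the iron exporter, 6 against 33, *Cd163*, the haemoglobin scavenger receptor, 1 against 5, and *Spic* 0 against 15. In WT1101 *Hp* had 1 against 6 UMIs and *Trf* stood at 0.641. Adipocyte genes were also higher in the haemoglobin-positive bins of KO1134, at 2.16. Which cells there made *Hp* and *Trf* was not tested.

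Adipocyte genes were higher in both sections, at 2.24 (1.85 to 2.71) in WT1101 and 2.16 (1.93 to 2.41) in KO1134, but in WT1101 *Fabp4*, a fatty acid carrier of both fat cells and capillary endothelium, held 131 UMIs against 236 while *Adipoq*, the adipocyte hormone, had 0. In KO1134 *Fabp4* had 331 against 739 UMIs and *Adipoq* 37 against 66, a ratio of 2.80. Lymphoid and epithelial lists went in several directions. T cell genes stood at 0.845 (0.805 to 0.886) and 0.861, cortical epithelial genes at 0.708 (0.647 to 0.773) and 0.995, and medullary epithelial genes at 1.55 (1.27 to 1.88) and 0.628 (0.485 to 0.804). Plasma cell genes stood at 1.44 (1.36 to 1.52) and 0.956, and B cell genes at 1.21 and 0.391 (0.244 to 0.598). Lymphatic endothelial genes stood at 3.33 (1.57 to 6.87) on 14 UMIs in WT1101 and 0.758 in KO1134. Striated muscle genes stood at 0.789 and 2.12, on 11 UMIs in KO1134.

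Across all genes, a minority of the genes higher in 1 section were also higher in the other. Of 3976 genes counted in both, 208 (5.23%) were higher in WT1101 and 253 (6.36%) in KO1134, and 33 were higher in both. That was 15.9% of the former, against the 6.36% of all 3976 genes that were higher in KO1134. It was 13.0% of the latter, against the 5.23% higher in WT1101. A further 30 were lower in both, 29 were higher in WT1101 and lower in KO1134, and 24 the reverse. Lower genes were 11.6% of those counted in WT1101 and 14.2% in KO1134, over each section's own genes. The 20 genes with the highest lower bounds over both sections were led by *Fabp4*, *Aqp1*, *Cavin1* and *Cd36*, genes of endothelium and fat, with *Cavin1*, a coat protein of caveolae, at 2.72 and 2.41 and *Cd36*, a fatty acid receptor, at 2.5 and 2.78. Stromal genes followed, among them *Col1a2* at 2.58 and 2.20. The 20 also held the mitochondrial genes *mt-Co3*, at 1.86 and 1.27, and *mt-Co1*, at 1.135 and 1.181. The ribosomal protein gene *Rps12* was among them too, at 1.756 and 1.212. The 10 lowest included *Ptprc*, the leukocyte surface phosphatase, at 0.869 and 0.637, and *Gimap6*, a GTPase of lymphocytes, at 0.81 and 0.491. *Trp53* itself, read as a check of the labels, had 34 UMIs (61.5 CPM) in haemoglobin-positive bins of WT1101 and 2 (12.3 CPM) in those of KO1134, against 79.8 and 17.0 CPM over all kept bins.

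Each section also had leaders of its own, chosen here after their values were seen. In WT1101 they were *Ctgf*, a matrix-associated growth factor of vessel walls and stroma, with 89 against 15 UMIs and a ratio of 29.7 (17.1 to 55.2), *Vwf*, the chemokine gene *Ccl19* with 33 against 7, and *Mmrn2*, an endothelial matrix protein, with 33 against 9. In KO1134 they were *Cyp2e1*, a cytochrome P450 of liver and fat, with 34 against 23 UMIs and a ratio of 7.39 (4.23 to 13.1), the adipocyte gene *Cfd* with 319 against 354 and a ratio of 4.505 (3.86 to 5.26), and *Car3*, an abundant carbonic anhydrase of fat and muscle, at 3.09.

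The endothelial level also followed the number of globin UMIs in WT1101. It was 230 CPM in matched bins without globin, 323 CPM at 1 globin UMI, 602 CPM at 2, 636 CPM at 3, 512 CPM at 4, 796 CPM at 5 to 9, 800 CPM at 10 to 19 and 916 CPM at 20 or more. Bins just under the threshold thus already held more endothelial RNA than matched bins, and the rule divided a gradient. The terminal erythroid level over the same classes was 665, 564, 661, 611, 501, 482, 552 and 702 CPM, with no such order. In KO1134 the endothelial level was 351 CPM without globin and lay between 426 and 661 CPM in all classes with it, without an order by globin UMIs.

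**Figure D3:**
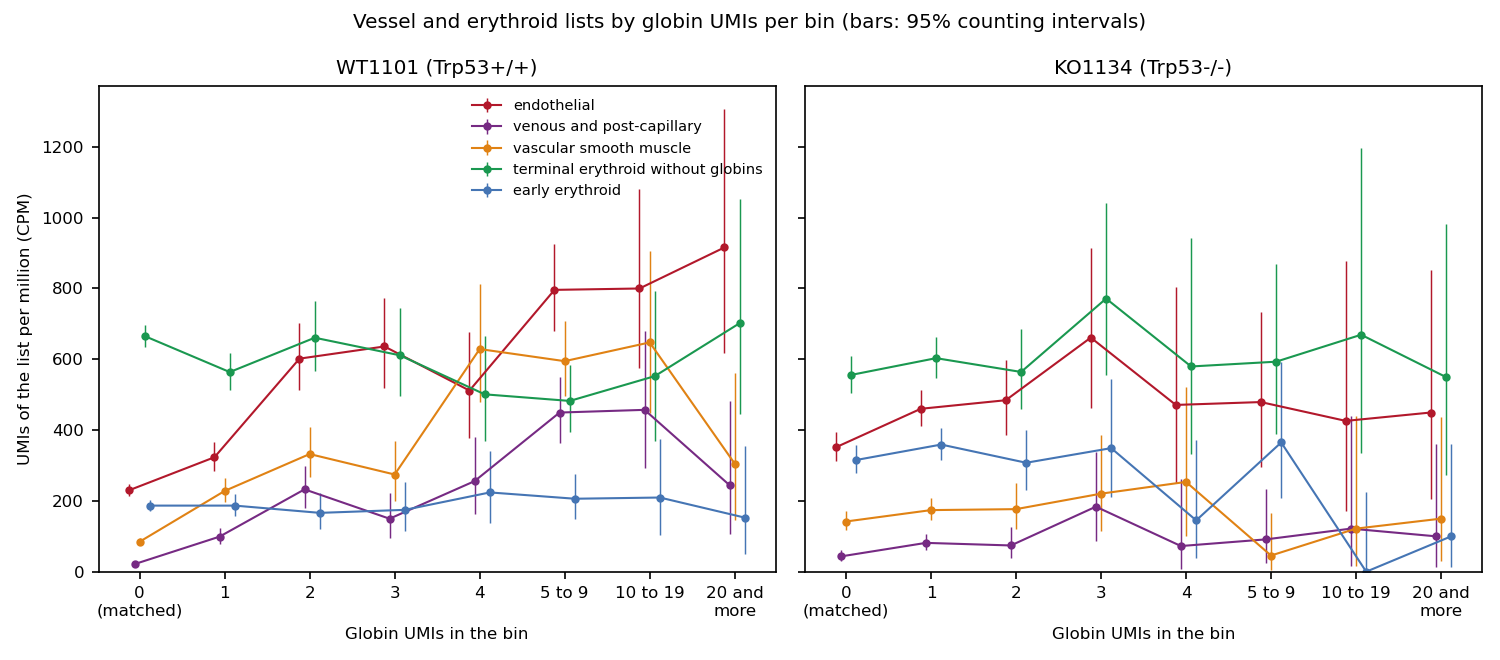
CPM of the endothelial, venous, smooth muscle, terminal erythroid (without globins) and early erythroid lists against globin UMIs per bin in both sections, from globin-free matched bins to bins with at least 20, with 95% Poisson intervals. Endothelial genes go from 230 to 916 CPM in WT1101, while the terminal erythroid list stays between 482 and 702 CPM.

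Vessel genes were higher in the haemoglobin-positive bins than in the globin-free bins around them, most plainly in WT1101. In WT1101 the endothelial level was 709 CPM in these bins, 335 CPM in the globin-free bins touching them, 237 CPM at a distance of 2 bins and between 219 and 245 CPM farther away. The venous list went from 318 to 59 CPM in touching bins and the smooth muscle list from 495 to 169 CPM. In KO1134 the endothelial level was 530 CPM and then 403 CPM in touching bins, and adipocyte genes went from 2851 to 1382 and 671 CPM before rising again to 2149 CPM beyond 16 bins.

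**Figure D4:**
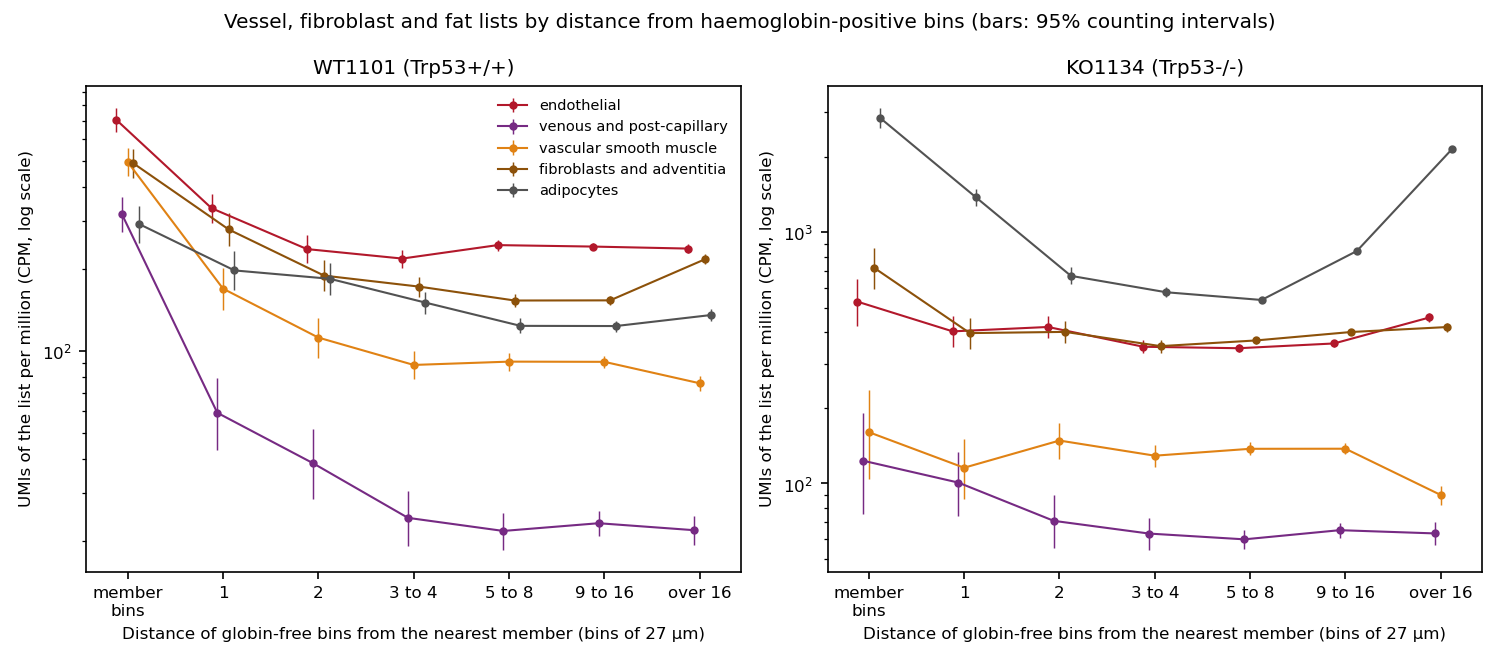
CPM (log axes with different ranges) of the endothelial, venous, smooth muscle, fibroblast and adipocyte lists in haemoglobin-positive bins (the first point, member bins) and in globin-free bins by distance from the nearest of them in bins of 27 µm, with 95% Poisson intervals. In WT1101 venous genes drop from 318 CPM to 59 CPM in touching bins, and in KO1134 adipocyte genes are high both at 2851 CPM in the haemoglobin-positive bins and at 2149 CPM beyond 16 bins.

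Where in the thymus the bins lay also differed. Areas were assigned from the surroundings of each bin, 7 by 7 bins, as cortex, medulla or outside the thymus by the summed UMIs of thymocyte, cortical and medullary epithelial genes. In WT1101 the medulla held 211 of the 308 bins, 3.01% (2.62 to 3.43) of its kept bins, the cortex 93 (0.523%) and the outside 4 (0.163%). In KO1134 the outside held 28 of the 74, 1.11% (0.736 to 1.59) of its kept bins, the cortex 35 (0.546%) and the medulla 11 (0.356%). The cortical shares of the 2 sections were thus close to each other, and the gap lay in the medulla and the outside.

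Endothelial genes were also higher against matched bins of the same area, except that in the medulla of KO1134 the interval spanned 1. In WT1101 the ratio was 2.81 (2.43 to 3.23) in the medulla and 1.68 (1.26 to 2.21) in the cortex, with the venous list at 5.56 and 5.77. The terminal erythroid list stood at 0.721 in the medulla. In KO1134 the endothelial ratio was 1.74 (1.21 to 2.47) in the cortex, 1.71 (1.05 to 2.70) outside and 1.32 (0.692 to 2.355) in the medulla. Outside the thymus of KO1134, adipocyte genes stood at 2.19 even against other outside bins.

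The connected groups were not alike. Groups 1 and 2 of WT1101, the band in the medulla, had endothelial ratios of 5.26 (4.19 to 6.60) and 3.40, venous ratios of 21.3 and 12.7, and smooth muscle ratios of 9.03 and 7.0. They held 74 of the 88 *Vwf* UMIs of all haemoglobin-positive bins, and with group 5, of 10 bins, 83. Group 3, of 31 bins and 147 globin UMIs mostly in the cortex, had no venous UMI, and *Vwf* was thus at 0. Its smooth muscle ratio was 0.833 and its fibroblast ratio 0.256 (0.030 to 0.990). Its endothelial ratio was 1.45 (0.834 to 2.41) on 20 UMIs, an interval that spanned 1 and does not show absence. Group 4, of 12 bins, had endothelial genes at 3.57, smooth muscle at 11.7 (5.12 to 28.9) and 6 UMIs of *Pf4* but no venous UMI. The bands and patches of globin RNA in this section therefore differed in the vessel genes beside them. Venous and smooth muscle genes were both higher in some, smooth muscle without venous UMIs in group 4, and neither list was higher in group 3.

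In KO1134 the largest group, of 14 bins outside the thymus with 276 globin UMIs, had an endothelial ratio of 0.952 on 4 UMIs, fibroblast genes at 3.23 and adipocyte genes at 2.20. Group 2, of 8 bins with 118 globin UMIs outside the thymus, had endothelial genes at 2.27 (1.15 to 4.30) and adipocyte genes at 9.63 (7.58 to 12.3). Group 3, of 8 bins with 94 globin UMIs in the cortex, had endothelial genes at 0.556 and no venous, smooth muscle or adipocyte UMI. Bins that stood alone had endothelial ratios of 2.63 (1.64 to 4.125) in WT1101 and 1.645 (1.01 to 2.59) in KO1134, so that the excess was not limited to large groups.

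**Figure D5:**
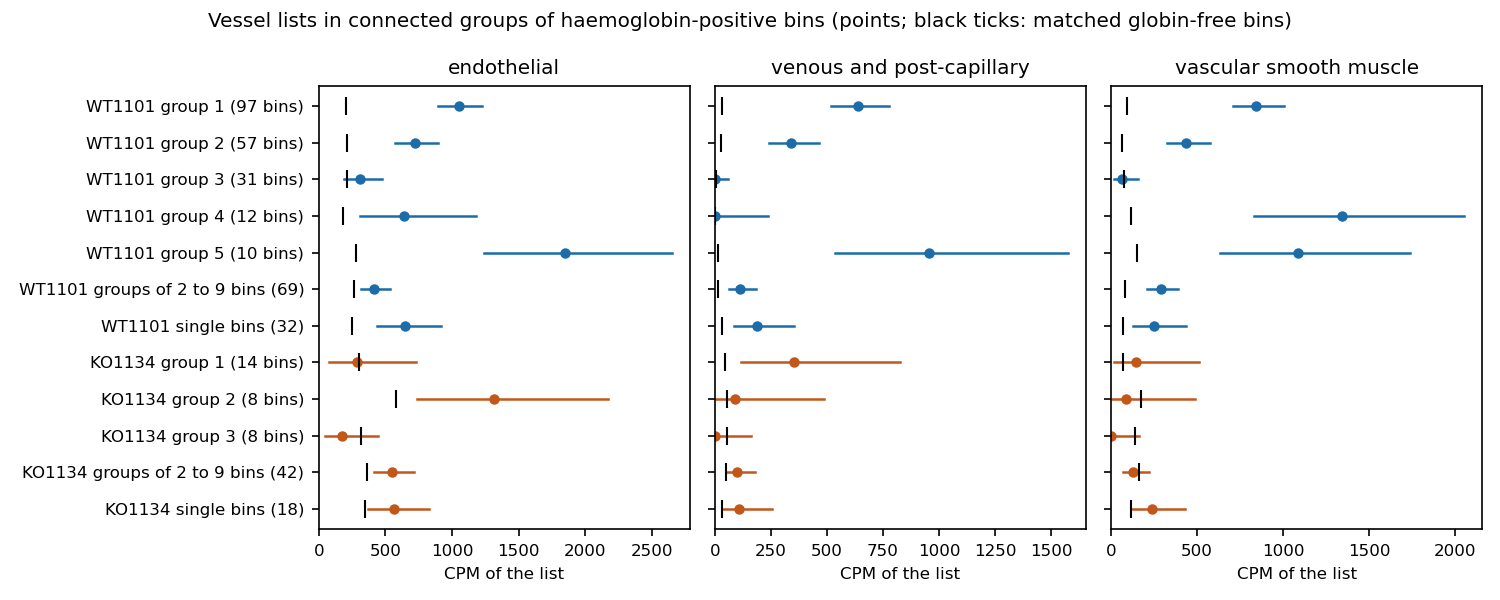
CPM (linear axes from 0) of the endothelial, venous and smooth muscle lists in the larger groups of touching haemoglobin-positive bins and in groups pooled by size, as points with 95% Poisson intervals, beside black ticks for their matched globin-free bins; the class of groups of 2 to 9 bins in KO1134 (42 bins) includes groups 2 and 3. Groups 1, 2 and 5 of WT1101 lie to the right of their ticks in all 3 panels, while group 3 lies close to its ticks.

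The bins richest in globin are given one by one, since few UMIs of other blood and vessel genes were counted in each. In WT1101 the 5 richest held 137, 114, 43, 38 and 32 globin UMIs, and in KO1134 160, 82, 44, 36 and 34. *Vwf*, *Acta2* and *Pf4* were at 0 in all 10. *Alas2* had 1 UMI in each of the first 2 bins of WT1101 and in the first bin of KO1134, which left 2 UMIs in all other haemoglobin-positive bins of WT1101 and 0 in those of KO1134. Endothelial UMIs in these bins were 3, 2, 0, 1 and 0 in WT1101 and 0, 4, 1, 2 and 0 in KO1134. Mural UMIs, of smooth muscle and pericytes, were 2, 2, 2, 1 and 0 in WT1101 and 2, 2, 1, 1 and 1 in KO1134. The richest bin of KO1134 held 160 globin UMIs among 1174, or 13.6%, against 4.55% in the richest bin of WT1101.

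Within bins, globin UMIs were spread over several capture spots. The median haemoglobin-positive bin had 4 globin-bearing spots in WT1101 (range 1 to 19) and 3 in KO1134 (1 to 30), and all globin UMIs came from a single spot in 6 bins (1.95%) and 5 bins (6.76%). Spots with at least 10 globin UMIs numbered 16 and 11 and carried 9.01% and 15.97% of the globin UMIs, with highest values of 44 and 48. Around a globin-bearing spot the globin level of the other spots fell with distance, from 5461 CPM within 6 µm to 1753 CPM at 30 to 50 µm and 549 CPM at 120 to 200 µm in WT1101. In KO1134 the same levels were 6957, 821 and 124 CPM. Globin RNA thus stayed above the section's level of 75.3 and 42.7 CPM over more than the width of 1 bin. The spread of RNA between spots was not tested. The 2 sections shared 345766 spot names, which are array positions, of 1128950 in WT1101 and 440671 in KO1134. Of the shared names, 12 bore globin in both sections, out of 2140 globin-bearing spots in WT1101 and 797 in KO1134. This overlap was not tested.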

How the data were processed

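Spatial RNA libraries were made from 3 frozen thymus sections. The authors deposited UMI counts per gene and spot, made with BSTMatrix (STAR aligner, GRCm38), and spot positions, a score whose unit is not stated. Positions were converted to µm with an assumed scale, on which every width and distance in µm rests. Here counts were summed in squares of 27 µm and kept at 300 genes or more and 30% mitochondrial UMIs or less, per the study's filters. With 1 section per genotype no test was possible, and no p-value is given. Each bin with 3 or more globin UMIs was matched to 5 globin-free bins of its section by total UMIs, without reuse. Ratios carry exact binomial intervals. The members, the 27 gene lists and the comparisons were chosen with earlier results of these data known. Named genes were the 4 globins, the 20 genes with the highest smaller lower bound over both sections and the 10 with the lowest larger upper bound among genes with at least 20 UMIs in each, up to 5 genes per blood and vessel list, and defining genes. Alternatives covered threshold, bin width, filters, matching and groups. Computation used Python 3.11.15, numpy 2.4.6, scipy 1.17.1, pandas 2.3.3 and matplotlib 3.10.9, and scripts were tested on simulated data.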

Additional observations from a re-analysis of the deposited data

Results flagged for a closer look

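The following results went opposite ways in the 2 sections, and the differences were not tested. The medullary epithelial list stood at a ratio of 1.55 in WT1101 and 0.628 in KO1134. *Ccl21a*, a chemokine of medullary epithelium and lymphatic vessels, stood at 1.51 in WT1101 and 0.562 in KO1134. *Ighm*, the heavy chain of immunoglobulin M, stood at 1.304 in WT1101 and 0.65 in KO1134. The unnamed transcript *4930578G10Rik* stood at 2.25 in WT1101 and 0.469 in KO1134.

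Signal also appeared in data that the comparisons leave out. KO1308, from a 21-week-old *Trp53*-/- female, had 157 globin UMIs in its kept bins (8.51 CPM) and 5 bins with at least 3. Bins below the filters held 98 globin UMIs in WT1101 (106 CPM), 26 in KO1134 (308 CPM) and 44 in KO1308 (16.7 CPM). Embryonic globin genes had 23 UMIs in WT1101 and 42 in KO1134, all outside the haemoglobin-positive bins.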

How the results depend on the processing

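Under 14 alternatives, 2 of which were added after seeing the data, 118 values were recomputed. Of these, 87 moved by less than counting error or, for gene counts, by less than 1.5 times, and 31 moved by more. A reversal was counted only for list ratios whose main interval excluded 1, and 0 were found. Shares, gene counts and ratios whose interval spanned 1 could not count as reversed. Among these, the early erythroid ratio crossed 1 at 20 µm, from 1.06 to 0.9 in WT1101 and from 0.801 to 1.01 in KO1134. The share of haemoglobin-positive bins in WT1101 (1.13%) was 0.601% at a minimum of 5 globin UMIs, 0.741% in bins of 20 µm, 2.41% in bins of 50 µm, 1.3% with 500 genes per bin, 0.774% without the largest group and 0.879% after thinning. In KO1134 (0.614%) it was 0.299% at 5 globin UMIs, 0.299% at 20 µm, 2.07% at 50 µm and 0.291% after thinning. The endothelial ratio of WT1101 (3.08) was 3.51 at 5 globin UMIs, 2.36 at 50 µm, 2.42 without the largest group, 2.55 against bins of the same area and 1.84 without groups of 10 or more bins. For the mural list, smooth muscle and pericytes together (3.32 in WT1101 and 1.23 in KO1134), the value of WT1101 was 2.70 at 50 µm, 2.60 without the largest group and 2.32 without groups of 10 or more bins. The mural interval of KO1134 spanned 1 (0.951 to 1.59) but lay above 1 at 20 µm (1.487), 50 µm (1.245), on non-globin UMIs (1.368) and with 1 comparison bin (1.444), whereas its endothelial interval reached 1 at 5 globin UMIs (1.39), 20 µm (1.23) and with 1 comparison bin (1.32). Without groups of 10 or more bins the terminal erythroid ratio of WT1101 was 0.923 (0.747 to 1.13), so that its interval then reached 1. In KO1134 the terminal erythroid interval spanned 1 in the main comparison (0.942 to 1.46). It lay above 1 with 1 comparison bin per member, at 1.395 (1.029 to 1.898). The count of higher genes in WT1101 (560) was 254 with 1 comparison bin per member, 97 with at least 200 UMIs, 4134 with at least 1 UMI, 149 at 2-fold and 268 without groups of 10 or more bins. In KO1134 (277) it was 145 at 5 globin UMIs, 182 at 20 µm, 512 at 50 µm, 100 with 1 comparison bin, 15 with at least 200 UMIs, 3932 with at least 1 UMI and 58 at 2-fold. The cause of these moves was not tested. No paired analysis was possible because each genotype has 1 section in these comparisons. With 74 haemoglobin-positive bins and 162378 UMIs in them, KO1134 could show only large differences in rare genes.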
